A study of Homo sapiens with 32 samples.

Results

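The ubiquitin-specific protease (USP) genes are described here by their N6-methyladenosine (m6A) peaks. Members were the protein-coding RefSeq genes whose symbol is USP followed by a number and an optional letter, leaving out the USP17L copies and chromosome Y. This gave 50 of 20056 protein-coding genes, of which 43 held at least 1 peak in the 4 lists analysed. A peak belonged to a gene when its summit lay within the hg38 gene span, whichever strand it was called on. m6A was mapped by antibody enrichment and sequencing (MeRIP-seq), which yields regions where enriched RNA exceeds background, called peaks. The knockdown libraries came from A375 cells, an established human melanoma line, carrying a hairpin RNA against METTL3 (genotype METTL3 knockdown, shMETTL3 replicates 1 and 2). Peak names in these 2 lists carry a ko prefix, while the labels say knockdown, and the labels are followed here. They were set against A375 cells with a control hairpin (genotype WT, shControl replicates 1 and 2). All 4 libraries were made from chromatin-associated RNA depleted of ribosomal RNA, with an m6A spike-in added, so unspliced and nuclear transcripts are represented. The hairpin sequences and the number of hairpins are not given in the labels, and nothing says whether replicates were separate cultures, so their spread may be technical. The other 28 of the 32 samples are not analysed here.

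METTL3 is the enzyme that places most m6A, working within a methyltransferase complex that modifies adenosines within a short consensus of nascent and mature transcripts. Ubiquitin-specific proteases are the largest family of deubiquitinases: cysteine proteases that cut ubiquitin from histones, receptors, DNA repair proteins and other substrates, or edit ubiquitin chains. Members differ widely outside the catalytic core, which directs them to the nucleolus, endosome, mitochondrion or proteasome.

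The first transcribed bases could be read for members whose start lies under a peak. Among the starts that RefSeq promoter windows give (39 members, GRCh38.p14), the first 50 bases of USP1, USP15 and USP11 were overlapped by a peak in each of the 4 lists. Transcript bases 21 to 50 of these 3 are shown, since they are the sequence at hand nearest to USP peaks found in every list. Peaks covered all 30 bases of the USP15 and USP11 stretches in each list. Of the USP1 stretch they covered 30 and 0 bases in shMETTL3 replicates 1 and 2 and 30 and 4 in shControl replicates 1 and 2, so the marked USP1 pentamer lay under the peak in 2 of the 4 lists. Capitals mark m6A consensus pentamers, searched on the transcript strand only: GGAC or AGAC or TGAC or GAAC or AAAC or TAAC, with A or C or T as the last letter. Each stretch holds at most 1 match.
USP1: tcggtggcggagtgctaaAGACCctagcgg
USP15: ggcggagcggcggatctGGACAcccagcgg
USP11: agagaacggacggcgatggcgacggtcgca
The USP1 stretch is chr1:62437069-62437098 (plus strand), at an annotated start within the gene span. The USP15 stretch is chr12:62260424-62260453 and the USP11 stretch chrX:47233029-47233058, both also on the plus strand. Such a pentamer occurs in the first 50 bases of 49.6% of 35116 RefSeq windows and of 45.3% of the 53 member windows, so its presence is common and is no call of a methylated base. The other member starts under a peak were USP21 and USP53, each in shControl replicate 2 alone. Folds are the authors' own value for each peak, relative to the background of its own list, so folds of different lists are set side by side as values and not tested. At the USP1 start the folds were 4.89 and 4.04 in shMETTL3 replicates 1 and 2, against 3.05 and 2.86 in shControl replicates 1 and 2. The USP15 start had 2.27 and 2.65 in shMETTL3 and 2.84 and 2.37 in shControl. At USP11 the values were 3.51 and 3.68 in shMETTL3 and 3.84 and 3.79 in shControl. Fold percentiles of these peaks within their lists ran from 7.14 (USP15) to 70.2 (USP1), both in shMETTL3 replicate 1. All 3 starts had peaks in both groups. The USP1 summits lay at -79 and -84 bp from this start, thus upstream of it, in shMETTL3 replicate 2 and shControl replicate 2.

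The shMETTL3 lists held 198 and 186 peaks in USP genes, of 44108 and 42969 peaks in all. The shControl lists held 201 and 209 of 45345 and 47692. The knockdown mean was 192 ± 8.49 and the control mean 205 ± 5.66 (SD, n = 2 each), a difference of -13 peaks. The groups did not overlap. By an exact permutation test (two-sided) p was 0.333, and 2 against 2 libraries cannot give a smaller one. With lists limited to equal length the difference was 5 peaks in the other direction, and as a share of each list the groups overlapped: 0.449% and 0.433% in shMETTL3 against 0.443% and 0.438% in shControl (exact permutation p = 1). The peaks covered 69.3 and 67.1 kb in shMETTL3, with mean widths of 350 and 361 bp. In shControl they covered 64.9 and 69.5 kb, with mean widths of 323 and 332 bp (exact permutation p = 1 for the covered length). With lists of equal length the covered length was 5.68 kb higher in shMETTL3 (exact permutation p = 0.333), against 1.045 kb higher with the full lists. At least 1 peak was found in 41 and 40 members in shMETTL3 and in 41 and 41 in shControl (exact permutation p = 1). How deeply each library was sequenced is unknown.

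METTL3 itself carried 5 peaks in every list, which is no check of the knockdown. Of 6 melanocyte lineage markers, MITF had 7 and 9 peaks in shMETTL3 and 5 and 8 in shControl, and SOX10, PMEL, TYR, MLANA and DCT had none. A list of peaks holds no RNA levels, so a lower level of an RNA and less methylation cannot be told apart in any result below.

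Peaks were frequent in this family. In 37 of the 50 members (74%) every list held a peak, against 39.7% of protein-coding genes. Members were also longer, with a median span of 70.1 kb against 24.1 kb, and the part of gene length in this contrast was not tested. Among genes with a peak, members carried fewer per length than protein-coding genes, at medians of 0.511 and 0.712 peaks per 10 kb. The median fold percentile of USP peaks within each list was 43.8 and 40.4 in shMETTL3 and 46.6 and 50.2 in shControl. Peaks of all protein-coding genes had medians of 49.8 and 49.95 in shMETTL3 and 50.2 and 50.2 in shControl. USP peaks thus ranked near the middle of their lists.

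**Figure D1:**
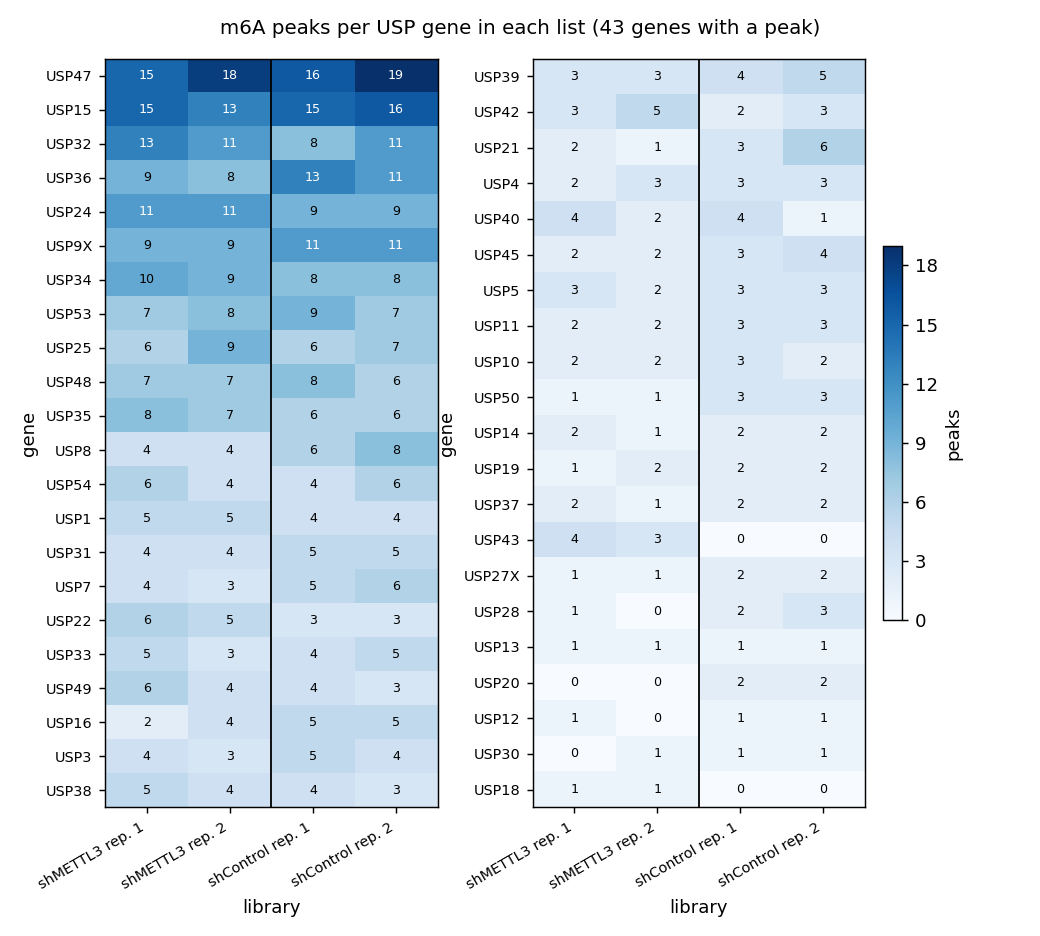
Peaks per gene (rows) in each library (columns) for the 43 USP genes with a peak, ordered by their mean, with the number printed in each cell. USP47 and USP15 held 13 to 19 peaks in every library. USP43 and USP18 show 0 in both shControl libraries, and USP20 shows 0 in both shMETTL3 libraries.

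Overlapping peaks of the 4 lists (1 bp or more, same strand) were merged to loci, giving 272 loci in USP genes, of which 120 (44.1%) were in all 4 lists. Over all 66409 loci of these lists the share was 35.7%. A locus with a peak in both lists of one group and neither list of the other is called knockdown-only or control-only. Of the 146 USP loci in both shMETTL3 lists, 15 (10.3%) were knockdown-only, against a background of 18.9% of all such loci. Of the 165 in both shControl lists, 25 (15.2%) were control-only, against a background of 22.6%. In protein-coding genes alone the backgrounds were 18.6% and 21.9%. No test is given for these shares, because loci of a gene are not independent. With peaks of fold at least 4 the knockdown-only share came close to its background (25% against 27.6%), and likewise with a −log10 q of at least 20 (17.9% against 19.2%). Control-only shares stayed below theirs (17.5% against 24.96%, and 16.04% against 23.3%). Counts depended on single libraries: there were 31 and 36 knockdown-only loci without shMETTL3 replicates 1 and 2, and 48 control-only loci without shControl replicate 1. Leaving out a list loosens the definition for its group, which by itself raises the count.

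**Figure D2:**
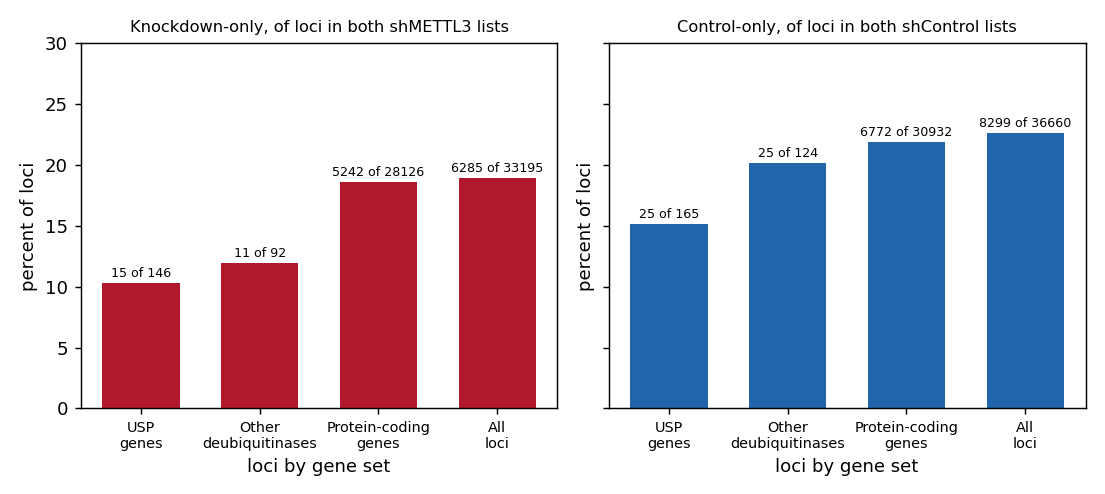
Percent of loci found in one group only, by gene set: knockdown-only among loci of both shMETTL3 lists (left, red) and control-only among loci of both shControl lists (right, blue), with the numbers above the bars. USP genes stand at 10.3% and 15.2%, other deubiquitinases at 11.96% and 20.2%, and all loci at 18.9% and 22.6%. Of the 25 control-only loci of other deubiquitinases, 8 were in PRPF8 and 4 in PAN2.

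Moved loci were spread thinly over the family. Control-only loci occurred in 19 members and knockdown-only loci in 11, with 4 members (USP15, USP25, USP47 and USP48) holding both kinds. A further 17 members had peaks but neither kind. The share of all protein-coding genes with such loci was not worked out, so these counts are not set against other genes. The moved loci were mostly weak. Control-only loci had median folds of 3.21 and 3.13 in shControl replicates 1 and 2, against 3.94 and 4.06 for USP loci in all 4 lists. Knockdown-only loci had medians of 3.41 and 2.96 in shMETTL3 replicates 1 and 2, against 4.04 and 3.99. The part of peak strength in which loci moved was not tested. A fold of at least 4 in both lists of its group was reached by 4 knockdown-only and 3 control-only loci.

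Counted by gene, peak numbers were lower in both shMETTL3 lists than in both shControl lists in 14 of the 43 members with a peak (32.6%), against a background of 24.4% of protein-coding genes with a peak. They were higher in 7 (16.3%), against a background of 19.4%. The lower ones include USP39 and USP50, whose peaks all lay on the opposite strand within other genes, and USP45, lower through opposite-strand peaks. The higher ones include USP35, with 19 of its 27 peaks on the opposite strand. Counting own-strand peaks, a setting chosen after the data were seen, 11 of 41 members were lower (26.8%, background 24.1%) and 7 were higher (17.1%, background 19%), both near the background. USP35 was not among these 7 higher members, and USP49 took its place. With peaks of either strand the groups overlapped or tied in 22 members. A count can also change when one locus is called as several peaks. USP31 had 4 and 4 peaks in shMETTL3 and 5 and 5 in shControl, with its 4 loci in all lists. USP24 had 11 and 11 peaks in shMETTL3 and 9 and 9 in shControl without a knockdown-only locus. Its 3 loci found in 1 list alone were all in shMETTL3 lists, so single-list loci also added to its count.

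USP43 and USP18 carried peaks in the knockdown lists alone. USP43 had 4 and 3 peaks in shMETTL3 and 0 and 0 in shControl. Its 3 knockdown-only loci lay on the plus strand of chromosome 17. The strongest, at 9728227 to 9728631 and 1185 bp from the gene end, had folds of 7.17 and 5.57. Beside it, 9728770 to 9729226 had 3.61 and 3.83, and a locus 20.7 kb inside the gene at 9665938 to 9666364 had 4.22 and 5.93. USP18 removes the ubiquitin-like modifier ISG15 and dampens interferon signalling. Its single locus (chromosome 22, 18157516 to 18157751, inside the gene) had folds of 9.72 and 7.56 in shMETTL3, the highest of the knockdown-only USP loci. Peaks in both shMETTL3 lists and no shControl list were thus found in 2 of 43 members, against a background of 5.7% of protein-coding genes with a peak.

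USP20 was the one member with peaks in both control lists and no knockdown list, against a background of 4.74%. It deubiquitinates beta-adrenergic receptors, among other substrates. It had 0 and 0 peaks in shMETTL3 and 2 and 2 in shControl. Both loci lay in the last 2000 bp of the gene on chromosome 9: 129880030 to 129880550 had folds of 5.76 and 4.88 in shControl, and 129880878 to 129881471 had 4.23 and 3.49. In USP20 and in USP43, gene-end loci were therefore present in one group and missing from the other, in opposite directions. For a single gene the exact permutation test over 2 against 2 lists cannot go below p = 0.333, and none was run.

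Histone deubiquitinases and the SAGA-type proteases (9 genes) had 30 and 26 peaks in shMETTL3 and 35 and 34 in shControl. They held 3 knockdown-only of 22 loci (13.6%) and 5 control-only of 27 (18.5%), near the 18.9% and 22.6% of all loci. USP16, which cuts ubiquitin from histone H2A, had 2 and 4 peaks in shMETTL3 and 5 and 5 in shControl. Its control-only loci lay on chromosome 21. The one from 29043333 to 29043573 had folds of 2.28 and 2.53, and the one from 29050481 to 29051399 had 3.84 and 3.03. USP22, the histone H2B protease of the SAGA coactivator complex, had 6 and 5 peaks in shMETTL3 and 3 and 3 in shControl. Both of its knockdown-only loci were inside the gene on chromosome 17 and low: 21017947 to 21018180 had folds of 2.14 and 2.21, and 21020424 to 21020686 had 3.16 and 1.83. Of the 7 genes of this group with a peak, only USP22 had more peaks in both knockdown lists, while USP16, USP21, USP27X and USP36 had fewer. USP27X had 1 and 1 in shMETTL3 against 2 and 2 in shControl. Over protein-coding genes with a peak, 19.4% were higher and 24.4% lower, and 7 genes are too few to set against these shares. On own-strand peaks USP49 also had more. USP36, a nucleolar protease, had 9 and 8 peaks in shMETTL3 and 13 and 11 in shControl, with 7 loci in all 4 lists and 1 control-only. By lowest fold percentile across the lists, the strongest shared USP36 locus was 78803438 to 78804084 on chromosome 17. The folds there were 5.19 and 5.31 in shMETTL3 and 10.02 and 7.06 in shControl. USP44 and USP51, also of this group, had no peak.

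The members that act in DNA damage repair and on p53 (8 genes) had 28 and 28 peaks in shMETTL3 and 28 and 30 in shControl, with 1 knockdown-only of 22 loci (4.55%, against 18.9% of all loci), 2 control-only of 25 (8%, against 22.6%) and 20 in all 4 lists. USP1, which deubiquitinates FANCD2 and PCNA, had 5 and 5 peaks in shMETTL3 and 4 and 4 in shControl. The knockdown-only locus of USP1 (chromosome 1, 62448381 to 62448619) was weak, at 2.39- and 2.78-fold. USP7, which stabilises MDM2 and p53, had 4 and 3 peaks in shMETTL3 and 5 and 6 in shControl. The control-only USP7 locus (chromosome 16, 8898404 to 8898741) had folds of 5.72 and 2.08 in shControl replicates 1 and 2. USP28, which binds 53BP1, had 1 and 0 peaks in shMETTL3 and 2 and 3 in shControl. Of the 9 USP24 loci in both shControl lists, 8 were also in both shMETTL3 lists. USP42, a p53 protease, had some of the strongest loci of the family. At 6154065 to 6155176 on chromosome 7 its folds were 14.8 and 10.1 in shMETTL3 and 8.4998 and 11.6 in shControl, and the groups overlapped.

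Regulators of TGF-beta and growth signalling (5 genes) had 3 knockdown-only of 22 loci (13.6%, against 18.9% of all loci) and 7 control-only of 31 (22.6%, as in all loci). Among them USP15 had the second most peaks of the family and the most moved loci. This protease acts on TGF-beta receptors and SMAD proteins. It had 15 and 13 peaks in shMETTL3 and 15 and 16 in shControl, over 23 loci, the most of any member. Of these, 2 of 9 were knockdown-only and 3 of 12 control-only, near the 18.9% and 22.6% of all loci. Its knockdown-only loci on chromosome 12 had folds of 2.65 and 3.48 (62295455 to 62296019) and 4.12 and 5.16 (62308989 to 62309194). The 3 control-only loci had folds of 3.59 and 3.98 (62321354 to 62321519), 1.69 and 1.97 (62391136 to 62391310), and 3.005 and 2.34 (62402777 to 62402931). Both knockdown-only loci lay upstream of the 3 control-only ones, at 35.3 and 48.7 kb from the gene start against 61.1, 130.9 and 142.5 kb. This order rests on few loci and was not tested. USP15 kept 1 control-only locus with a fold of at least 4, with a −log10 q of at least 20 or with lists of equal length. It had 3 knockdown-only loci with lists of equal length. USP9X, a large protease encoded on the X chromosome, had 9 and 9 peaks in shMETTL3 and 11 and 11 in shControl, with 1 control-only locus and 6 in all 4 lists. USP4, another protease of the TGF-beta receptor, had 2 and 3 peaks in shMETTL3 and 3 and 3 in shControl. By lowest fold percentile across the lists, its strongest locus lay near the gene end, at 49277889 to 49278566 on chromosome 3. The folds there were 6.34 and 6.16 in shMETTL3 and 7.44 and 7.86 in shControl.

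**Figure D3:**
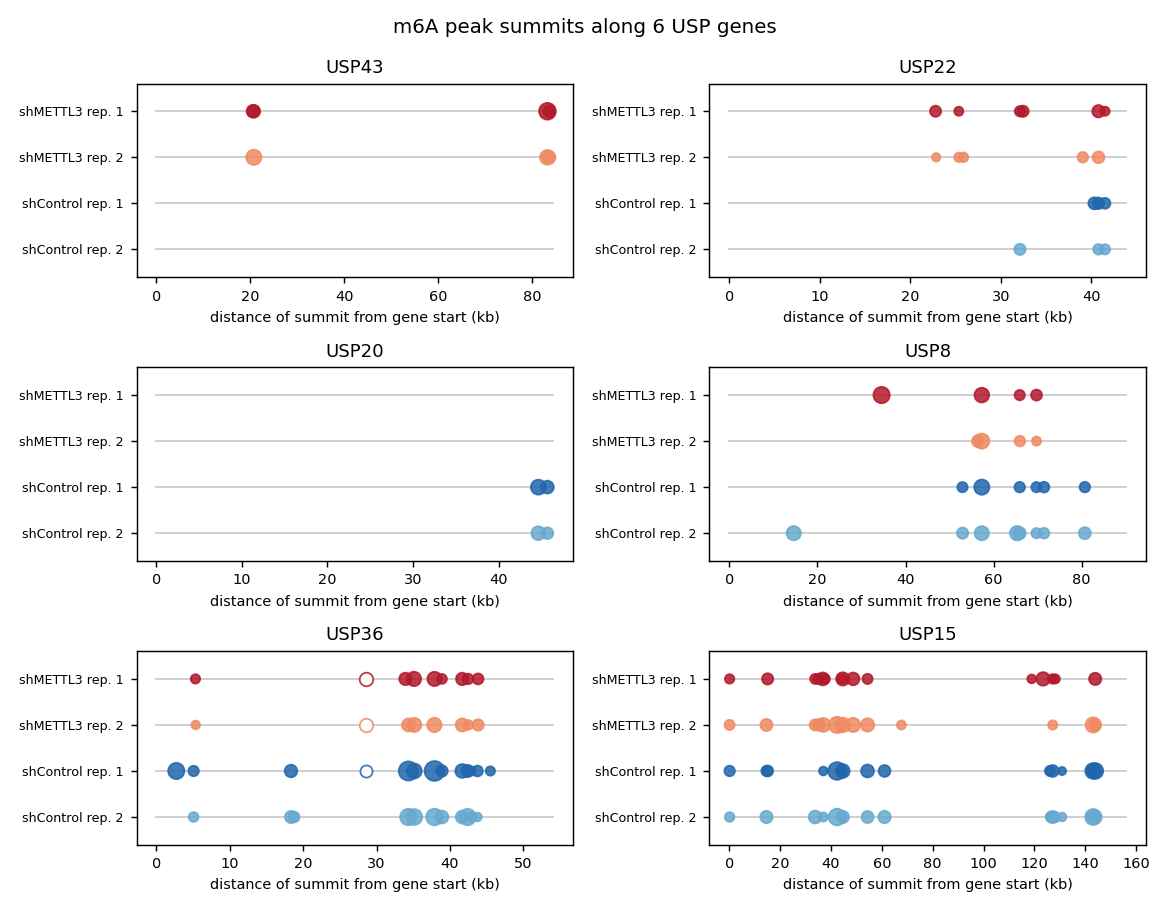
Summits of single peaks along 6 USP genes: distance from the gene start in kb (x axis) in each library (rows, shMETTL3 above shControl), with point area proportional to fold and open points for peaks on the strand opposite to the gene. USP43 shows points in the shMETTL3 rows alone, at 20.7 and near 83.2 kb, and USP20 in the shControl rows alone, near the gene end.

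The endosome, Golgi and centrosome members (6 genes) had 1 knockdown-only of 15 loci (6.67%, against 18.9% of all loci) and 5 control-only of 19 (26.3%, near the 22.6% of all loci). Of the control-only loci, 3 were in USP8 and 2 in USP20. USP8, which controls receptor sorting at endosomes, had 4 and 4 peaks in shMETTL3 and 6 and 8 in shControl. Its control-only loci on chromosome 15 were 50477282 to 50477470 (folds of 2.71 and 3.24), 50495706 to 50495859 (2.96 and 2.91) and 50504977 to 50505251 (2.85 and 3.70). USP8 also had 3 loci in all 4 lists, the strongest at 50481357 to 50482063 with folds of 5.50 and 5.86 in shMETTL3 and 5.91 and 5.16 in shControl. USP32, a protease of the endosome and Golgi, had 13 and 11 peaks in shMETTL3 and 8 and 11 in shControl. Its gene-end locus at 60179024 to 60179520 on chromosome 17 had folds of 9.55 and 11.5 in shMETTL3 and 5.04 and 4.25 in shControl. The neighbouring locus at 60181350 to 60181830 had fold percentiles of 99.0 or more in each list. Its lowest percentile was the highest among USP loci in all 4 lists, though other USP loci ranked higher in single lists. Its folds were 10.97 and 11.05 in shMETTL3 and 10.03 and 9.36 in shControl. USP6, a hominoid gene that shares sequence with USP32, had no peak, and reads of such copies can be hard to place.

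The other members with many peaks kept most of their loci. USP47, which acts on DNA polymerase beta, had the most peaks of the family: 15 and 18 in shMETTL3 and 16 and 19 in shControl. Of its 14 control loci 11 were in all 4 lists, and it had 1 locus of each moved kind. At 11910814 to 11912339 on chromosome 11, a locus of 1526 bp, the folds were 10.8 and 8.21 in shMETTL3 and 4.08 and 4.74 in shControl. At 11942256 to 11943096 they were 9.72 and 9.75 in shMETTL3 and 10.2 and 8.51 in shControl, so within the same gene one locus had higher folds in both knockdown lists and another overlapped. USP34, a Wnt pathway protease, had 10 and 9 peaks in shMETTL3 and 8 and 8 in shControl, with all 8 control loci kept in the 4 lists. Its locus at 61343916 to 61344154 on chromosome 2 had folds of 6.96 and 6.004 in shMETTL3 and 6.59 and 8.46 in shControl. USP53, long classed as catalytically inactive, had 7 and 8 peaks in shMETTL3 and 9 and 7 in shControl, and 1 control-only locus of folds 4.98 and 5.27 (chromosome 4, 119217440 to 119217645). USP38 had a locus 0.862 kb from its start (chromosome 4, 143185302 to 143186140). Its folds were 6.45 and 6.59 in shMETTL3 and 8.07 and 5.47 in shControl. Together the 8 members with the most peaks held 357 of the 794 USP peaks (44.96%).

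**Figure D4:**
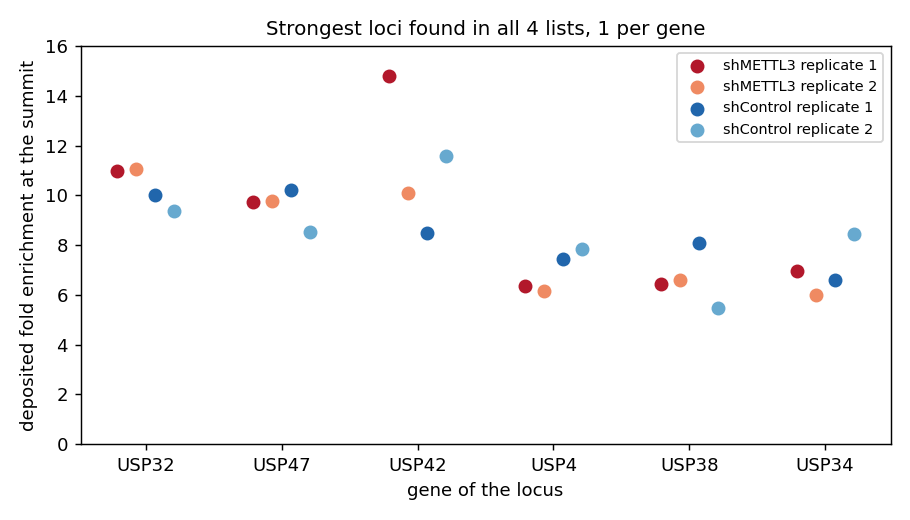
Deposited fold enrichment (y axis) in each of the 4 libraries for the strongest locus found in every list, 1 per gene (x axis). Strength was ranked by the lowest fold percentile across the 4 lists, and the 6 USP genes with the highest such locus are shown. The shMETTL3 points are red and shControl points blue. In USP32 both shMETTL3 points lie above the shControl points, in USP4 both lie below, and in the other 4 genes the groups overlap. How often folds separate in this way over all loci was not worked out, so this is no call for USP32 or USP4.

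Proteases of the proteasome, mitochondria and autophagy (4 genes) had few peaks. Of their 4 loci in both shMETTL3 lists and 5 in both shControl lists none moved, which is too few loci to set against the 18.9% and 22.6% of all loci. USP13 had 1 peak in each list, USP14, the proteasome-bound protease, had 2 and 1 in shMETTL3 and 2 and 2 in shControl, and USP30, which opposes mitophagy, had 0 and 1 in shMETTL3 and 1 and 1 in shControl. USP5, which recycles free ubiquitin chains, had 3 and 2 in shMETTL3 and 3 and 3 in shControl. Of the members that bind WDR48, USP12 had 1 and 0 peaks in shMETTL3 and 1 and 1 in shControl, and USP46 had none. The members without a peak were USP2, USP6, USP26, USP29, USP44, USP46 and USP51. Their median span was 35.1 kb, against 79.9 kb for members with a peak.

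Strand separated a few genes from their neighbours. The gene strand came from RefSeq promoter windows for 39 members and from the peaks themselves for 8, which are then on their own strand by construction, while 3 members had neither. On the strand of a member lay 752 of the 794 peaks and 256 of the 272 loci. All 15 peaks in the span of USP39, a splicing factor that lacks protease activity, were on its opposite strand and within C2orf68, so USP39 had no peak of its own strand. USP35 had 8 peaks on its strand and 19 on the other, where GAB2 lies. All 8 peaks counted for USP50 were plus-strand peaks within USP8, which runs that way, and they are counted once in sums over the family. The control-only loci of USP45, at 99449173 to 99449403 and 99449973 to 99450294 of chromosome 6, also lay on the opposite strand. Their folds were 4.53 and 3.41, and 4.43 and 4.21. On its own strand USP45 had no moved locus. With own-strand loci alone, the family held 15 knockdown-only loci of 139 and 22 control-only of 156.

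Own-strand USP loci were mostly inside the gene. Of these, 228 (89.1%) were in the interior, 23 (8.98%) in the last 2000 bp and 5 (1.95%) in the first 500 bp. In protein-coding genes the shares were 83.2%, 11.8% and 4.97%, and the difference was not tested. All 3 USP loci in both shMETTL3 lists at gene starts were also in both shControl lists. At gene ends, 3 of 13 loci were knockdown-only (USP43 with 2 and USP25 with 1) and 2 of 12 were control-only (both in USP20). The gene-end shares, 23.1% and 16.7%, were near those of protein-coding gene ends, 17.9% and 16.1%. In USP interiors 12 of 123 (9.76%) were knockdown-only and 20 of 141 (14.2%) control-only, against 18.3% and 22.7% in protein-coding interiors. Transcript parts such as exons and introns are not annotated in the tables used here.

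The 44 other deubiquitinase genes had 134 and 111 peaks in shMETTL3 and 146 and 153 in shControl. They belong to other families, apart from 3 USP-fold genes outside the symbol rule (CYLD, USPL1 and PAN2). Peaks were found in 36 of them (32 in every list), with 11 knockdown-only of 92 loci (11.96%) and 25 control-only of 124 (20.2%). The OTU family had 6 knockdown-only of 49 (12.2%) and 4 control-only of 53 (7.55%), against 18.9% and 22.6% of all loci. OTULIN, which cuts linear ubiquitin chains, had 16 and 14 peaks in shMETTL3 and 15 and 13 in shControl. In the JAMM metalloprotease family 13 of 28 control loci (46.4%) were control-only and 2 of 13 knockdown loci (15.4%) knockdown-only. PRPF8, a spliceosome core protein with an inactive JAMM domain, held 8 of the 13 control-only loci and 9 of the 28 control loci. It had 2 and 3 peaks in shMETTL3 and 13 and 13 in shControl, so the JAMM share rests largely on this gene. BAP1, the UCH-family histone H2A protease, had 3 and 4 peaks in shMETTL3 and 2 and 2 in shControl. MINDY3, which trims long ubiquitin chains, had 4 and 4 in shMETTL3 and 6 and 5 in shControl. JOSD1, of the Josephin family, had 2 and 2 in shMETTL3 and 2 and 1 in shControl. PAN2, which has an inactive USP fold in a deadenylase subunit, had 10 and 6 peaks in shMETTL3 and 14 and 14 in shControl. Of its 14 control loci 4 were control-only. PRPF8 and PAN2 thus held a large part of the 25 control-only loci of this set.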

How the data were processed

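Peak lists of 4 m6A-enriched libraries (2 shMETTL3, 2 shControl) were used as deposited, 1 list per library. Per the submitters' processing notes, the tools were MACS2 2.2.7.1, HISAT2 2.1.0, Bowtie2 2.4.2, Trim Galore 0.6.6 and SAMtools, on hg38. Their roles, and whether input or spike-in entered the peak calls, are not given in the sources used here. Peak names show that the authors called each strand by itself. The deposited fold enrichment is a ratio. The deposited p-value and q-value are −log10 values, with a smallest −log10 q of 2. The deposited score repeats the q-value and was not used, and the deposited summit offset placed each peak.

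Gene spans and strands came from RefSeq tables (GRCh38.p14). A missing strand was that of at least 80% of the gene's peaks. Loci merged peaks sharing 1 bp on the same strand and were placed by their strongest summit. Library values were compared by exact two-sided permutation tests. Locus building was tested on simulated data. Python 3.11.15 and pandas 2.3.3 were used. Fully described members were the 8 with the most peaks and up to 6 with the most loci (at least 2) of each moved kind. To these came the 6 with the strongest shared locus, ranked by lowest fold percentile, and those with peaks in one group. Other genes are the ones with the most peaks of their list or, where not, were picked after their values were seen. The further shared loci given for USP32 and USP47 followed no such rule. Members and lists were chosen with earlier results of these data known.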

Additional observations from a re-analysis of the deposited data

How the results depend on the processing

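Sequencing depth is unknown, folds are relative to other RNA of the same library, and the exact permutation test of 2 against 2 libraries cannot go below p = 0.333, so directions below carry no call. The lower peak number in knockdown turned to 5 peaks higher with lists of equal length, where the covered length was 5.68 kb higher (p = 0.333, exact permutation). The number of genes with a peak (difference of -0.5) turned to 0.5 with a fold of at least 4 and with lists of equal length. The difference in share of all peaks was 0.00014 percentage points and turned to -0.00023 with a −log10 q of at least 20, -0.039 when peaks of fold 4 or more were kept and -0.00085 when any overlap with the gene counted. Leaving out 1 library gave differences of -19 to -7 peaks, -1 to 0 genes, -1.25 to 3.34 kb of covered length and -0.00788 to 0.00815 percentage points. Control-only loci fell to 10 with a fold of at least 4 and numbered 35 to 48 without 1 library. Knockdown-only loci numbered 20 to 36 without 1 library. The mean of the median fold percentiles, 45.2, was 76.1 among peaks of fold at least 4 and 64.0 with a −log10 q of at least 20, which follows from removing weak peaks; these settings were added after the data were seen. Over single named genes, counts of moved loci above 0 stayed within 1.5 times in 146 of 198 recomputations, and counts of 0 stayed at 0 in 188 of 220. These totals pool settings that change few peaks. With a fold of at least 4, most counts above 0 changed by more than this. Control-only loci fell from 3 to 0 in USP8, 2 to 0 in USP16 and 3 to 1 in USP15. Knockdown-only loci fell from 2 to 0 in USP22, while USP43 kept 2 of 3, USP15 kept 2 and USP18 kept 1.

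At loci in all 4 lists there was no sign that replicate numbers pair the libraries. Over these 23691 loci, the replicate differences of the groups correlated at 0.0028. Pairing is not settled by this, because loci of fewer lists were left out and the labels do not say how replicates were made. With a replicate block the difference stayed at -13 peaks (exact sign permutation p = 0.5, the smallest it allows), -0.5 genes, 1.045 kb of covered length and 0.00014 percentage points.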

Other observations

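The 11 genes of USP partners and regulators had 47 and 36 peaks in shMETTL3 and 39 and 42 in shControl, with 7 knockdown-only of 30 loci (23.3%, against 18.9% of all loci) and 10 control-only of 34 (29.4%, against 22.6%), both near the shares over all loci. BABAM2, a subunit of the BRCA1-A complex, had the most, with 11 and 7 in shMETTL3 and 9 and 11 in shControl. The next 5 genes were picked after their values were seen. GMPS, the metabolic enzyme that binds USP7, had 4 and 5 peaks in shMETTL3 and 1 and 2 in shControl, with 3 knockdown-only loci. WDR20, a cofactor of USP12 and USP46, had 4 and 3 peaks in shMETTL3 and 1 and 1 in shControl. ATXN7L3, a subunit of the SAGA module that activates USP22, had 4 and 2 in shMETTL3 and 7 and 6 in shControl. G3BP1, which binds USP10, had 1 and 1 peaks in shMETTL3 and 2 and 2 in shControl, and both of its control loci were control-only. WDR48 had 10 and 6 in shMETTL3 and 7 and 7 in shControl, without a moved locus.

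The genes of ubiquitin precursors and E1 enzymes all carried peaks in every list. They had 18 and 17 peaks in shMETTL3 and 17 and 21 in shControl, with 0 knockdown-only of 14 loci and 1 control-only of 16, in UBA1. These are too few loci to set against the 18.9% and 22.6% of all loci. UBA6, the alternative E1 enzyme, kept its 5 loci in all 4 lists.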
